A study of Mus musculus with 6 samples.

Results

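The homeostatic astrocyte genes are 33 genes that astrocytes use in their resting duties, and all 33 were found by gene name among the 35148 gene models of a mouse RNA-seq table. They were taken as a list by gene name and not by a threshold on these values, but earlier results of these data were known. The tissue was the hypothalamic paraventricular nucleus (PVH), a cluster of neurosecretory and pre-autonomic neurons that governs feeding, stress hormones and water balance. All mice carried loxP-flanked alleles of Ruvbl2 (Ruvbl2fl/fl), which encodes an ATPase of chromatin remodelling and chaperone complexes. In 3 samples the PVH had received an adeno-associated virus of serotype 2 with GFP alone (AAV2-GFP), and in 3 the same serotype with Cre recombinase and GFP (AAV2-Cre-GFP). The sample titles give 8w, read here as RNA taken 8 weeks after injection. The labels otherwise name neither age nor sex, nor the promoter that drives Cre, nor whether the libraries come from separate animals. P-values below thus reflect only how far these libraries spread, which may be technical.

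Astrocytes buffer the potassium, water and glutamate that neurons release, and pass ions and metabolites to each other through gap junctions. Their end-feet wrap blood vessels and carry the water channel aquaporin-4 together with the membrane protein MLC1 and its adhesion partner HepaCAM. In the hypothalamus they also make angiotensinogen, surround the neurosecretory neurons and shape how much transmitter reaches them. Metallothioneins, small cysteine-rich proteins that bind zinc and copper, are abundant in these cells. The forms encoded by Mt1 and Mt2 are known to be induced by metals and by glucocorticoids.

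Ruvbl2, the targeted gene, stood at 9.90, 7.36 and 8.72 FPKM (fragments scaled by gene length and library size) with AAV2-GFP and at 9.53, 9.10 and 9.51 FPKM in the libraries labelled AAV2-Cre-GFP, a log2 difference of 0.077 ± 0.11 (SE; edgeR adjusted p = 0.773). Ruvbl2 was thus not lower under the Cre label at the level of the whole gene, and the reason was not tested. The groups are therefore called GFP-labelled and Cre-labelled below, and each direction compares libraries so labelled. Total counts ran from 41890769 to 54702785 per library. The ribosomal RNA model CT010467 took 2072 to 2219 CPM (counts scaled to a common library total) under the GFP label, and between 7301 and 17630 CPM under the Cre label. Kidney genes summed to 875 and 952 CPM in Cre-labelled libraries 2 and 3 against at most 115 CPM elsewhere, and testis genes to 736 CPM in GFP-labelled library 1 against at most 29.1 CPM elsewhere. These 3 libraries therefore stand apart, and results of members that rest on them are also given without them, which leaves 2 libraries against 1.

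The members were present at high levels in every library. The lowest count of any member in any library was 462 and the highest 76839. Mean levels in the GFP-labelled libraries ran from 5.10 FPKM for Cbs to 316 FPKM for Ndrg2, with a median of 27.9 FPKM. The median coefficient of variation of a member among libraries of 1 group was 4.48% with the GFP label and 6.11% with the Cre label. All 33 passed the filter on low counts.

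The estimates of the members lay on both sides of 0 and were small. Log2 differences, Cre-labelled minus GFP-labelled, were above 0 for 24 members and below 0 for 9, where 49.0% of the 20865 genes tested were above 0 and 51.0% below. In bulk tissue, fewer cells of a type and less RNA per cell cannot be told apart. The median of the members was 0.094 and that of all genes tested -0.0058. In the quasi-likelihood test of edgeR, 0 members had an adjusted p under 0.05 and 2 of all genes tested did (0.00959%). At an unadjusted p under 0.05 there were 9 members on the higher side, where 8.11% of all genes tested were, and 4 on the lower side, where 9.11% were. DESeq2 called 6 members higher (2.46% of all genes tested) and 2 lower (3.87%). In FPKM the groups did not overlap for some members, with the Cre label on top for 12 and at the bottom for 3. Of all genes tested 14.1% and 8.80% did so. On the lower side, these 3 of 33 members, and the 4 at an unadjusted p under 0.05, were close to the shares of all genes tested. On the scale of edgeR's TMM normalization, the counts without overlap were 10 and 6, against 11.1% and 11.7% of all genes tested. The log2 difference between the groups was lower on that scale than in FPKM, by a median of 0.038 over genes.

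**Figure D1:**
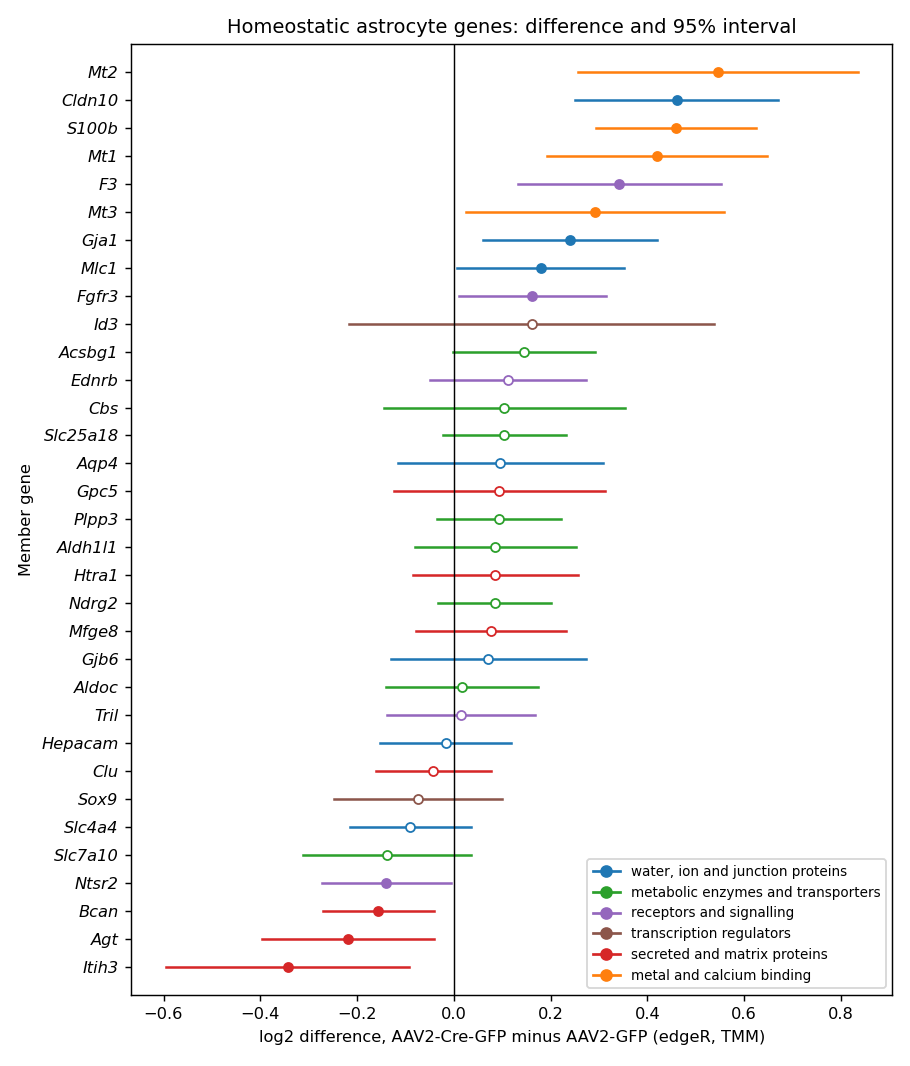
Log2 difference, Cre-labelled minus GFP-labelled, of each of the 33 members in edgeR (point) with its 95% interval (line), coloured by role and sorted by size. Filled points have an unadjusted p under 0.05, and they run from Mt2 at 0.55 to Fgfr3 at 0.16 on the higher side and from Ntsr2 at -0.14 to Itih3 at -0.34 on the lower side.

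The 4 genes of metal and calcium binding were all on the higher side, with a median log2 difference of 0.44. All 4 had an unadjusted p under 0.05, beside 8.11% of all genes tested on that side. The roles were drawn up with earlier results of these data known, so this count only describes these genes. Mt2, which encodes a metallothionein of most tissues, stood at 61.7, 62.9 and 84.1 FPKM in the GFP-labelled and at 105, 97.6 and 110 FPKM in the Cre-labelled libraries. All Cre-labelled libraries were above all GFP-labelled ones, and GFP-labelled library 3 lay nearest to them. The means were 69.6 ± 12.6 and 104 ± 6.38 FPKM (SD, n = 3), a log2 difference of 0.55 ± 0.13 (SE; edgeR adjusted p = 0.107; DESeq2 adjusted p = 0.00131), the largest positive estimate among the members.

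Mt1, the other widely expressed metallothionein, stood at 70.6, 66.9 and 86.3 FPKM in the GFP-labelled and at 101, 99.5 and 107 FPKM in the Cre-labelled libraries. The groups did not overlap, and as for Mt2 library 3 was the highest of each group. Its log2 difference was 0.42 ± 0.098 (SE; edgeR adjusted p = 0.111; DESeq2 adjusted p = 0.00163). Mt3, the form concentrated in brain, stood at 51.5, 59.3 and 64.8 FPKM against 67.8, 68.3 and 84.4 FPKM. Library 3 was again the highest of each group, and the gap between the groups was narrow: it held in FPKM and was lost after TMM normalization. The log2 difference of Mt3 was 0.29 ± 0.12 (SE; edgeR adjusted p = 0.256; DESeq2 adjusted p = 0.113). It was 0.19 without Cre-labelled library 3 and 0.074 without the 3 libraries that hold transcripts of other organs, while Mt2 and Mt1 were at 0.46 and 0.34 in that last setting.

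The 3 metallothionein genes lie side by side on the plus strand of chromosome 8 (GRCm38). Mt3 (ENSMUSG00000031760) spans 94152607 to 94154146, Mt2 (ENSMUSG00000031762) 94172664 to 94173568 and Mt1 (ENSMUSG00000031765) 94179082 to 94180327, with 18517 bases between Mt3 and Mt2 and 5513 between Mt2 and Mt1. No 31-base word of the Mt1 or Mt3 transcripts occurs in a transcript of another gene, and 0.524% of those of Mt2 do. The model Gm45774 on the minus strand covers 749 bases of Mt2. It stood at 0.640 FPKM in the GFP-labelled and 1.02 FPKM in the Cre-labelled libraries, and whether strand was used in counting is not given in the sources used here.

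Mt1 and Mt2 are known for metal response elements, short sites bound by the zinc-sensing factor MTF1. Because Mt1, Mt2 and Mt3 were on the same side, the 250 bases before each start in RefSeq (GRCm38.p6) are shown, plus strand, 5′ to 3′, with matches to TGCACNC or TGCGCNC on either strand in capitals. The windows are chr8:94178839-94179088 for Mt1, chr8:94172368-94172617 for Mt2 and chr8:94152357-94152606 for Mt3.
Mt1: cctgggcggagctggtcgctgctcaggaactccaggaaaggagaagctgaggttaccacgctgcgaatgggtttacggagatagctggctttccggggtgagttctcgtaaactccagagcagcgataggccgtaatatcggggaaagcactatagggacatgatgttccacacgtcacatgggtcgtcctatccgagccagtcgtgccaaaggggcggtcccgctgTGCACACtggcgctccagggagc
Mt2: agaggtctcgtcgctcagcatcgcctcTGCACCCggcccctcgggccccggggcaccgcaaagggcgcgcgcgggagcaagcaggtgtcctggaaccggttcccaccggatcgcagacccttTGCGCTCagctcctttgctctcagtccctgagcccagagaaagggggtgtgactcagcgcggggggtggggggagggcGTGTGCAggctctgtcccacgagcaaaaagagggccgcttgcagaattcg
Mt3: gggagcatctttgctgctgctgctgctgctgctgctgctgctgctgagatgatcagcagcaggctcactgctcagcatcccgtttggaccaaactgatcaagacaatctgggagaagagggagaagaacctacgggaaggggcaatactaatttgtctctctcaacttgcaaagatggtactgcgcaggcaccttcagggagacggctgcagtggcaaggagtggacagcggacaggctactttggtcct

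The Mt2 window held 3 matches, the Mt1 window 1 and the Mt3 window 0. Of 32851 promoter windows of the same length, 21.4% held at least 1 match and 1.26% held at least 3. Of 30 members with a RefSeq promoter, Ednrb, Slc4a4, Slc7a10 and Tril also had a window with 1 match. GENCODE M21 lists other starts 122 and 152 bases after the RefSeq start for Mt1, 46 and 242 bases after it for Mt2 and 139 bases after it for Mt3, so the sequence directly before those starts was not searched. A match is a description of letters in the window and not a measured binding site.

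S100b, the fourth gene of the role, encodes a calcium-binding protein of astrocytes that ependymal cells and some oligodendrocytes also make. It stood at 41.95, 44.1 and 49.2 FPKM in the GFP-labelled and at 65.4, 63.8 and 61.8 FPKM in the Cre-labelled libraries. The lowest Cre-labelled library was well above the highest GFP-labelled one, and the Cre-labelled libraries differed little. Its log2 difference was 0.46 ± 0.072 (SE; edgeR adjusted p = 0.0705; DESeq2 adjusted p = 5.71e-06), and it was 0.41 to 0.53 with any 1 library left out. Dip2a, a gene on the other strand that overlaps 1731 bases of S100b, stood at 11.8 FPKM in both groups.

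Other gene lists gave these values beside this role. Of 12 ependymal and tanycyte markers 11 were higher, and their sum was 177 to 192 CPM in the GFP-labelled and 222 to 286 CPM in the Cre-labelled libraries. None of these markers was at 0 in any library, but the lowest value in the list was 0.0131 FPKM, near the floor. Foxj1, the master factor of motile cilia, stood at 12.4 ± 1.36 against 18.4 ± 2.10 FPKM (SD, n = 3). Oligodendrocyte markers summed to 2525 to 3089 CPM and 2593 to 3120 CPM, overlapping between the groups. Among all genes tested, 8.11% were higher and 9.11% lower at an unadjusted p under 0.05. Of 19 genes of metal and zinc handling 13 were higher with a median log2 difference of 0.031, and 1 in each direction had such a p. These were Hmox1, haem oxygenase 1, on the higher side at 0.58 ± 0.20, and Slc30a1, a zinc exporter and classical MTF1 target, on the lower side at -0.42 ± 0.088 (SE; edgeR adjusted p = 0.198 and 0.095). Mtf1 itself differed by 0.040 ± 0.078 (SE).

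Of 16 genes known to be induced by glucocorticoids 15 were higher, with a median log2 difference of 0.32, and 6 of them had an unadjusted p under 0.05. Among all genes tested 8.11% were higher at that threshold. Tsc22d3, which encodes the glucocorticoid-induced leucine zipper GILZ, stood at 13.3, 13.3 and 14.3 FPKM against 19.9, 18.4 and 19.96 FPKM (log2 difference 0.47 ± 0.060, SE; edgeR adjusted p = 0.0694). Cdkn1a, the cell cycle inhibitor p21, differed by 0.91 ± 0.14, Plin4, a lipid droplet protein, by 0.92 ± 0.22 and Dusp1, a phosphatase of MAP kinases, by 0.65 ± 0.19 (SE; edgeR adjusted p between 0.0705 and 0.158). Fkbp5 and Per1, widely used glucocorticoid targets, differed by 0.13 ± 0.086 and 0.074 ± 0.13 (SE). The sum of this list was 435, 438 and 472 CPM in GFP-labelled libraries 1 to 3 and 493, 543 and 600 CPM in Cre-labelled libraries 1 to 3, so library 3 was the highest of each group here as it was for Mt1, Mt2 and Mt3. Library 3 was also the highest of each group for endothelial and mural markers (359 and 403 CPM) and for oligodendrocyte precursor markers (371 and 389 CPM). Kidney sums were 80.7, 875 and 952 CPM in Cre-labelled libraries 1 to 3, the same order as the glucocorticoid-induced genes. They were 115, 89.0 and 103 CPM in GFP-labelled libraries 1 to 3. Values of the glucocorticoid-induced genes without the 3 libraries that hold transcripts of other organs are not given here. The part of any of these lists in the metallothionein levels was not tested.

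**Figure D2:**
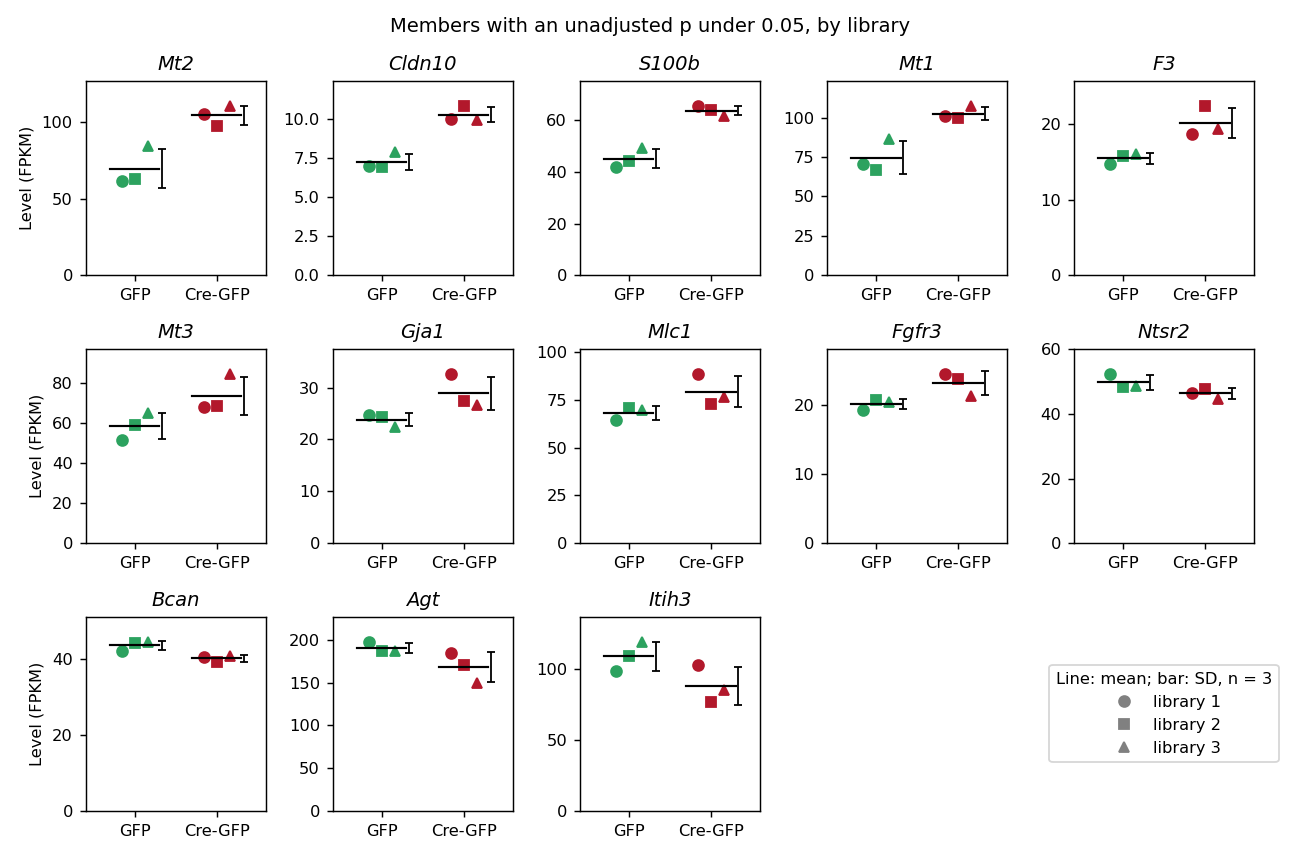
FPKM of the 13 members with an unadjusted p under 0.05 in each of the 6 libraries (symbol: library number; line: mean; bar: SD, n = 3), with each axis starting at 0. S100b and Cldn10 show a clear gap between the groups, Mt3 and Ntsr2 a narrow one, and Itih3 overlaps because Cre-labelled library 1 stood at 103 FPKM.

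Of the 7 genes for water, ion and junction proteins, 5 were higher and 2 lower, with a median log2 difference of 0.096. An unadjusted p under 0.05 was found for 3, all on the higher side, where 8.11% of all genes tested were. Cldn10, which encodes a claudin that forms ion-permeable tight junction pores, stood at 7.00, 6.96 and 7.89 FPKM in the GFP-labelled and at 10.04, 10.8 and 9.99 FPKM in the Cre-labelled libraries. The groups were well apart. Its log2 difference was 0.46 ± 0.090 (SE; edgeR adjusted p = 0.0849; DESeq2 adjusted p = 0.00321). Cldn10 is also a kidney gene. The kidney list summed to 80.7, 875 and 952 CPM in Cre-labelled libraries 1 to 3, of which library 2 had the highest Cldn10 level. Without the 3 libraries that hold transcripts of other organs the log2 difference was 0.38, and the part of kidney transcripts in it was not tested.

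Gja1, which encodes connexin 43, the main gap junction protein of astrocytes, stood at 24.6, 24.4 and 22.4 FPKM against 32.6, 27.4 and 26.7 FPKM. Cre-labelled library 1 was far above the other two, which were still above every GFP-labelled library. The log2 difference was 0.24 ± 0.078 (SE; edgeR adjusted p = 0.186; DESeq2 adjusted p = 0.0276), and it was 0.17 without Cre-labelled library 1 and 0.42 without the 3 libraries that hold transcripts of other organs. Gjb6, which encodes connexin 30, the second astrocyte connexin, stood at 27.8, 26.4 and 25.5 FPKM against 32.4, 28.4 and 25.3 FPKM. Cre-labelled library 1 was also the highest for this connexin, but the groups overlapped, and the log2 difference of 0.071 ± 0.087 (SE) became -0.0013 without that library.

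Mlc1, the end-foot membrane protein mutated in megalencephalic leukoencephalopathy, stood at 64.3, 70.9 and 69.6 FPKM against 88.6, 73.1 and 76.6 FPKM. The groups did not overlap, with Cre-labelled library 1 the highest by a wide margin. The log2 difference was 0.18 ± 0.074 (SE; edgeR adjusted p = 0.273), and it was 0.12 without Cre-labelled library 1 and 0.28 without the 3 libraries with other organs' transcripts. Its partner Hepacam stood at 33.5, 32.3 and 30.7 FPKM against 31.5, 32.6 and 33.8 FPKM. The 2 groups covered the same range, with a log2 difference of -0.016 and a 95% interval of -0.15 to 0.12.

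Aqp4, the water channel of the end-feet, stood at 24.0, 24.3 and 19.1 FPKM against 26.3, 23.6 and 24.1 FPKM. Only GFP-labelled library 3 stood out, as low, and without it the log2 difference of 0.096 ± 0.091 (SE; edgeR adjusted p = 0.636) became -0.0026. Slc4a4, the electrogenic sodium bicarbonate cotransporter NBCe1, stood at 28.1, 28.7 and 26.9 FPKM against 27.8, 27.3 and 25.6 FPKM. Its libraries overlapped in FPKM and did not overlap after TMM normalization, with a log2 difference of -0.090 ± 0.054 (SE; edgeR adjusted p = 0.442).

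The 8 metabolic enzymes and transporters were mostly a little higher, 7 against 1, with a median log2 difference of 0.090, and none had an unadjusted p under 0.05. Aldh1l1, a folate enzyme used as a pan-astrocyte marker, stood at 14.2, 15.2 and 14.7 FPKM against 14.9, 15.9 and 17.2 FPKM. The groups overlapped, with a log2 difference of 0.086 ± 0.072 (SE; edgeR adjusted p = 0.588). Aldoc, the brain aldolase of glycolysis, stood at 247, 257 and 282 FPKM against 288, 266 and 263 FPKM, also overlapping, with a log2 difference of 0.017 and a 95% interval of -0.14 to 0.17.

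Ndrg2, a stress-linked cytoplasmic protein of astrocytes and the member with the highest level, stood at 317, 315 and 317 FPKM against 344, 334 and 356 FPKM. The GFP-labelled libraries were almost identical and all Cre-labelled libraries were above them, by a log2 difference of 0.085 ± 0.050 (SE; edgeR adjusted p = 0.439). Slc25a18, a mitochondrial glutamate carrier, stood at 57.1, 57.4 and 59.2 FPKM against 68.4, 61.4 and 62.0 FPKM. It did not overlap between the groups either, with a log2 difference of 0.10 ± 0.055 (SE; edgeR adjusted p = 0.381). Plpp3, a lipid phosphate phosphatase, stood at 72.2, 74.3 and 70.1 FPKM against 76.2, 81.4 and 79.5 FPKM. This gap held in FPKM and was lost after TMM normalization (log2 difference 0.094 ± 0.055, SE; edgeR adjusted p = 0.437).

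Acsbg1, a long-chain acyl-CoA synthetase, stood at 38.4, 37.9 and 40.5 FPKM against 46.4, 40.4 and 45.8 FPKM. Only Cre-labelled library 2 reached into the GFP-labelled range, and the log2 difference was 0.15 ± 0.064 (SE; edgeR adjusted p = 0.296). Cbs, cystathionine beta-synthase of the transsulfuration pathway, stood at 4.83, 5.17 and 5.30 FPKM against 6.69, 4.96 and 5.26 FPKM. Cre-labelled library 1 alone was high, and without it the log2 difference of 0.10 became -0.012. Slc7a10, a transporter of D-serine and glycine, was the single gene of this role on the lower side. It stood at 18.1, 19.98 and 18.9 FPKM against 18.8, 16.2 and 18.2 FPKM (log2 difference -0.14 ± 0.075, SE; edgeR adjusted p = 0.397), with groups that overlapped in FPKM and not after TMM normalization. Lrp3, on the other strand, overlaps 1088 bases of Slc7a10.

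Of the 5 receptor and signalling genes 4 were higher and 1 lower, and 3 had an unadjusted p under 0.05. Of these 3, 2 were higher and 1 lower, where 8.11% and 9.11% of all genes tested were. F3, which encodes tissue factor, the cell-surface starter of blood coagulation, stood at 14.7, 15.7 and 15.98 FPKM against 18.7, 22.3 and 19.3 FPKM. Every Cre-labelled library was above every GFP-labelled one, with a log2 difference of 0.34 ± 0.091 (SE; edgeR adjusted p = 0.136; DESeq2 adjusted p = 0.0201). Without the 3 libraries that hold transcripts of other organs it was 0.18. Fgfr3, a receptor of fibroblast growth factors, stood at 19.3, 20.7 and 20.5 FPKM against 24.4, 23.8 and 21.2 FPKM. Cre-labelled library 3 was close to the GFP-labelled range, and the log2 difference was 0.16 ± 0.066 (SE; edgeR adjusted p = 0.265).

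Ntsr2, a neurotensin receptor concentrated in astrocytes, was on the lower side at 52.4, 48.4 and 48.7 FPKM against 46.6, 47.9 and 44.7 FPKM. The groups touched without overlapping, with a log2 difference of -0.14 ± 0.058 (SE; edgeR adjusted p = 0.273). Ednrb, the endothelin receptor B, stood at 24.8, 23.7 and 21.5 FPKM against 27.6, 25.6 and 24.3 FPKM, a log2 difference of 0.11 ± 0.070 (SE) with overlapping groups. Tril, an accessory protein of Toll-like receptor 4, had a log2 difference of 0.015 and a 95% interval of -0.14 to 0.17.

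The transcription regulators did not separate. Sox9, the factor that switches neural progenitors to glia and that is kept in astrocyte nuclei, stood at 13.04, 12.2 and 11.01 FPKM against 12.4, 11.2 and 11.8 FPKM. The groups overlapped fully, with a log2 difference of -0.074 and a 95% interval of -0.25 to 0.10. Id3, an inhibitor of helix-loop-helix factors downstream of bone morphogenetic proteins, stood at 7.41, 5.34 and 5.81 FPKM against 6.15, 7.22 and 7.90 FPKM. The groups overlapped around a wide spread, and its 95% interval of -0.22 to 0.54 was the widest of the 33 members.

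The 7 secreted and matrix proteins held 3 of the 4 members with an unadjusted p under 0.05 on the lower side. Among all genes tested 9.11% were lower at that threshold. Of these 7 genes 3 were higher and 4 lower, with a median log2 difference of -0.042. Itih3, a heavy chain of the inter-alpha-trypsin inhibitor that binds hyaluronan, stood at 99.01, 109 and 119 FPKM against 103, 76.6 and 85.4 FPKM. Cre-labelled library 1 lay inside the GFP-labelled range and the other two lay below it. The log2 difference was -0.34 ± 0.11 (SE; edgeR adjusted p = 0.179; DESeq2 adjusted p = 0.0117), the largest negative estimate among the members, and it was -0.20 without the 3 libraries that hold transcripts of other organs.

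Agt, which encodes angiotensinogen, the precursor of angiotensin peptides, stood at 198, 187 and 187 FPKM against 184, 171 and 149 FPKM. The groups did not overlap, but Cre-labelled library 1 was close to the GFP-labelled range and library 3 far below it. The log2 difference was -0.22 ± 0.077 (SE; edgeR adjusted p = 0.211; DESeq2 adjusted p = 0.0424). It was -0.13 without Cre-labelled library 3 and -0.075 without the 3 libraries that hold transcripts of other organs. Bcan, brevican, a proteoglycan of the perineuronal matrix, stood at 42.04, 43.9 and 44.3 FPKM against 40.4, 39.0 and 40.7 FPKM. Its libraries were tight and did not overlap, with a log2 difference of -0.16 ± 0.049 (SE; edgeR adjusted p = 0.179; DESeq2 adjusted p = 0.0543).

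The other secreted members stayed near 0. Clu, the chaperone clusterin and the third most abundant member, stood at 239, 254 and 241 FPKM against 249, 245 and 238 FPKM, fully overlapping, with a log2 difference of -0.042 and a 95% interval of -0.16 to 0.077. Htra1, a secreted serine protease, differed by 0.086 ± 0.074, Mfge8, a bridge for uptake of apoptotic cells, by 0.076 ± 0.067, and Gpc5, a glypican that carries heparan sulfate, by 0.094 ± 0.094 (SE). Over all 33 members, 21 had a 95% interval that lay within a 25% increase and the inverse of that fold.

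The metal and calcium binding genes were also set against the secreted and matrix genes within each library. The latter summed to 2211 to 2297 CPM under the GFP label and 2052 to 2264 CPM under the Cre label, which overlap, while on the TMM scale the lowest GFP-labelled sum was 2225 CPM and the highest Cre-labelled one 2200 CPM. The metal and calcium binding genes summed to 12.6%, 12.5% and 15.0% of the CPM of the secreted and matrix genes in GFP-labelled libraries 1 to 3, and to 18.2%, 19.3% and 21.5% in Cre-labelled libraries 1 to 3. The ratio of Mt2 to Itih3 in FPKM was 0.623, 0.577 and 0.706 against 1.02, 1.27 and 1.29, and that of S100b to Agt was 0.212, 0.236 and 0.263 against 0.355, 0.374 and 0.414. These pairs were chosen after their values were seen, and no test was made of them. Among the Cre-labelled libraries, library 1 held the highest FPKM for 18 members, library 2 for 7 and library 3 for 8. The median deviation of the members from their mean over the 6 libraries was 0.044, 0.018 and -0.0055 in log2 in Cre-labelled libraries 1 to 3. It was -0.058, -0.041 and -0.011 in GFP-labelled libraries 1 to 3. CT010467 stood at 17630, 13490 and 7301 CPM in Cre-labelled libraries 1 to 3, the same order as the deviations, and at 2219, 2201 and 2072 CPM in GFP-labelled libraries 1 to 3, the reverse order. Its part in the members' levels was not tested.

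**Figure D3:**
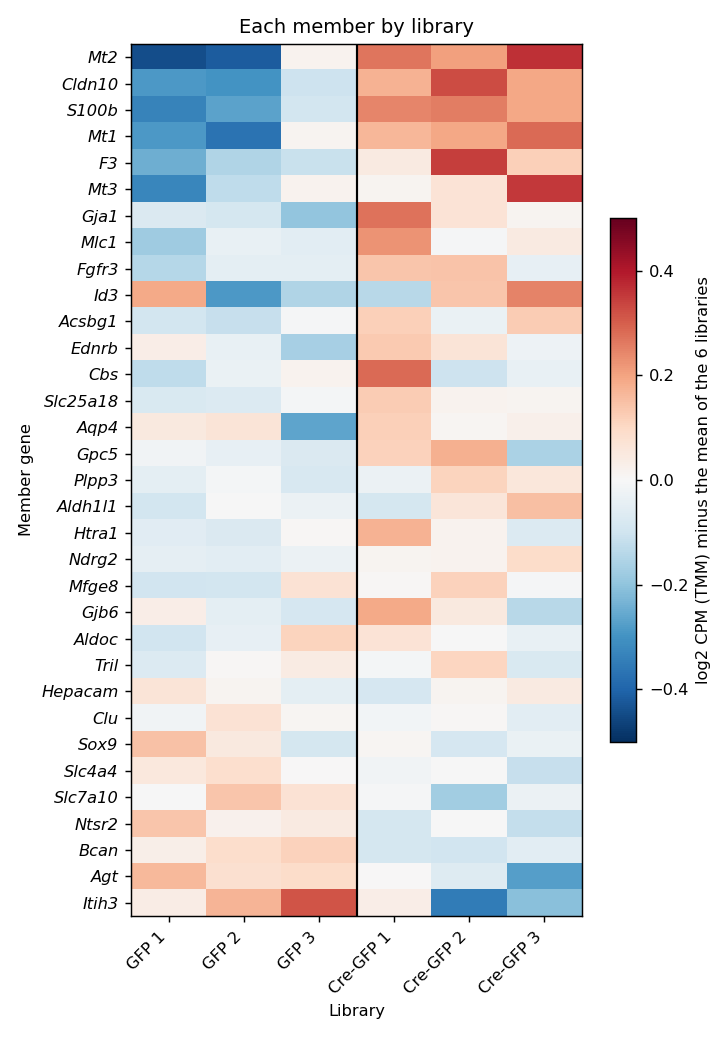
Log2 CPM (TMM) of each member in each library minus its mean over the 6 libraries, with members sorted by their log2 difference and a line between the groups. The upper rows turn from blue to red at the line and the lowest 4 from red to blue or pale, while most middle rows are pale and mark single libraries, such as Cbs in Cre-labelled library 1 and Aqp4 in GFP-labelled library 3.

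Astrocyte genes outside the members also had estimates on both sides of 0. Of 40 other astrocyte genes 24 were higher and 16 lower, with a median log2 difference of 0.043, and none passed in edgeR. At an unadjusted p under 0.05 there were 13 on the higher side (8.11% of all genes tested) and 5 on the lower side (9.11%). DESeq2 called 8 higher (2.46% of all genes tested) and 3 lower (3.87%). On the higher side, Etnppl, a phosphoethanolamine lyase, stood at 10.6 ± 0.863 against 15.0 ± 0.551 FPKM (SD, n = 3; log2 difference 0.46 ± 0.071, SE; edgeR adjusted p = 0.0705), Slc39a12, a zinc importer, at 23.8 ± 0.460 against 29.4 ± 1.51 FPKM, and Cst3, the protease inhibitor cystatin C, at 450 ± 47.9 against 582 ± 13.5 FPKM (edgeR adjusted p = 0.0938 and 0.120). Pla2g7, which encodes a phospholipase that cleaves platelet-activating factor, differed by 0.31 ± 0.073 (SE). On the lower side, Slc1a2, the glutamate transporter GLT-1, had a mean of 109 ± 5.90 FPKM under the GFP label and 96.7 ± 4.27 FPKM under the Cre label (SD, n = 3; edgeR adjusted p = 0.157). Atp1b2, a sodium pump subunit of glia, had means of 222 ± 11.3 and 185 ± 13.6 FPKM (SD, n = 3; edgeR adjusted p = 0.126). Slc1a3, the glutamate transporter GLAST, differed by 0.045 ± 0.051, and Glul, glutamine synthetase, by 0.19 ± 0.063 (SE).

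Of 29 tested genes of reactive astrocytes 23 were higher and 6 lower, with a median log2 difference of 0.21. Only 2 on the higher and 1 on the lower side had an unadjusted p under 0.05, beside 8.11% and 9.11% of all genes tested. Gfap, the intermediate filament that marks reactive astrocytes, stood at 54.7, 58.9 and 47.6 FPKM against 81.5, 55.7 and 60.7 FPKM. Cre-labelled library 1 was far above the rest, library 3 was just above the GFP-labelled range and library 2 lay inside it. The groups thus overlapped (log2 difference 0.26 ± 0.13, SE; edgeR adjusted p = 0.381). Vim, vimentin, stood at 7.67, 10.03 and 9.30 FPKM against 12.6, 11.5 and 12.3 FPKM, without overlap (log2 difference 0.39 ± 0.10, SE; edgeR adjusted p = 0.130). Emp1, an epithelial membrane protein, differed by 0.66 ± 0.24 and Amigo2, an adhesion protein, by -0.22 ± 0.070 (SE). Lcn2, lipocalin 2, stood at 1.80 to 2.87 FPKM in the GFP-labelled libraries and at 1.63, 5.01 and 7.84 FPKM in Cre-labelled libraries 1 to 3, high only in the 2 libraries with kidney transcripts.

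Markers of other cells stood as follows. Of 16 neuron markers 15 were lower, with a median log2 difference of -0.18, and their sum was 7132 to 7270 CPM in the GFP-labelled and 6361 to 6518 CPM in the Cre-labelled libraries. Rbfox3, the nuclear protein NeuN, and Syn1, the vesicle protein synapsin 1, had the smallest p of that list. Microglia markers were higher in 10 of 15 cases with a median of 0.15, and endothelial and mural markers in 11 of 14 with a median of 0.16. Oligodendrocyte markers had 6 higher and 6 lower, while all 14 thalamus markers were on the lower side (median -0.33), with sums of 872 to 1326 CPM against 664 to 1154 CPM. The members summed to 7327, 7425 and 7515 CPM in the GFP-labelled and to 8116, 7679 and 7684 CPM under the Cre label. These sums did not overlap on deposited totals but did on the TMM scale, at 7374, 7558 and 7686 against 7887, 7656 and 7570 CPM. The part of these other lists in the members' levels was not tested.

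**Figure D4:**
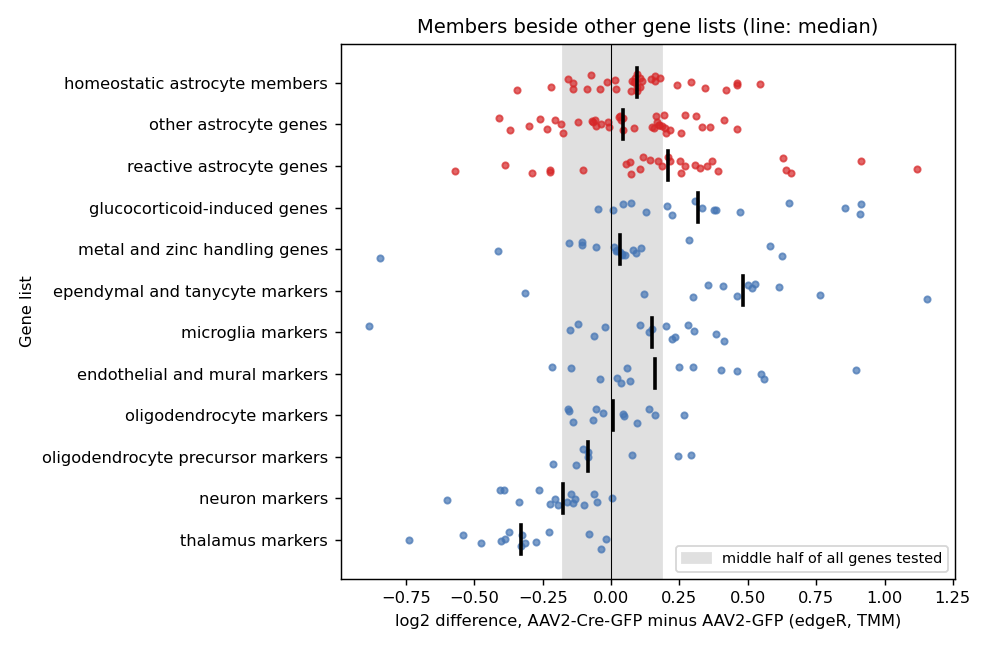
Log2 difference, Cre-labelled minus GFP-labelled, of each gene (point) in the members and in 11 other lists, with the median of each list (line) and the interquartile range of all genes tested (grey band, -0.18 to 0.19). The medians are 0.094 for the members, 0.48 for ependymal and tanycyte markers and -0.18 for neuron markers.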

How the data were processed

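Poly(A) RNA of the PVH was sequenced as read pairs from dUTP-marked libraries with molecular identifiers, per the labels' protocols. The submitters' processing notes name cutadapt, HISAT2 and StringTie. Their versions, and any use of identifiers or strand in counting, were not given in the sources used here. The notes name mm9, but 29 of the 33 members have GENCODE M21 (GRCm38) coordinates in the table. The table holds whole-number counts per gene as the authors deposited them, and FPKM values deposited beside them by the authors. Columns were matched to libraries by the words and number in each title.

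Counts were tested with edgeR 4.0.16 in R 4.3.3 (quasi-likelihood, TMM, filterByExpr with a minimum count of 10, no covariates, two-sided), leaving 20865 genes, with Benjamini-Hochberg adjustment over all of them and a threshold of 0.05. SEs are the log2 difference over the root of the F statistic. Levels are FPKM and list sums are CPM of deposited totals. DESeq2 1.42.0 and limma 3.58.1 on log2(FPKM + 0.5) were alternatives, beside those in the closing section. The test scripts were tested on simulated data. The smallest chi-square per gene between 2 libraries was 11.4, so none was a duplicate.

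The members, their roles and the lists were chosen with earlier results of these data known. By rule, values in every library were given for members with an unadjusted p under 0.05, for the 4 largest differences each way and for the first gene of each role, and list genes were named by smallest p; further members and Mtf1, Fkbp5, Per1, Slc1a2, Slc1a3, Atp1b2, Glul and Gfap were added for their roles. Results for liver, muscle, choroid plexus, meningeal and oligodendrocyte precursor lists are in the closing section.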

Additional observations from a re-analysis of the deposited data

How the results depend on the processing

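Each group has 3 libraries, and the lowest count of a member was 462. Whether more depth would change these values was not tested. The count of genes called at an adjusted p of 0.05, 2 in edgeR, was 1322 in DESeq2, 9 with median-ratio factors, 1 with no filter, 22 in a robust fit, 1 in limma with no filter on FPKM, and 1 to 296 with 1 library left out, the highest without Cre-labelled library 1. Members called were 0 in edgeR, 8 in DESeq2, 3 without the libraries that hold transcripts of other organs (a setting chosen after seeing the data, which called 1059 genes and in which Gja1, Mlc1 and S100b were called higher), and 0 with any 1 library left out. Members lower at an unadjusted p under 0.05 were 4 in edgeR, beside 1901 of the 20865 genes tested. They were 2 in limma with a pseudocount of 0.5 (1103 of 14485 genes tested). They were 2 with a pseudocount of 1 (1108 of 14485) and 1 with no filter (1422 of 35148). With 1 library left out they were 1 to 3, where 1393 to 1847 of all genes tested were lower. Members higher were 6 to 9 with 1 library left out, where 1295 to 1896 of all genes tested were higher. In limma, members higher were 13 with a pseudocount of 0.5 (1727 of 14485 genes tested) and 13 with a pseudocount of 1 (1721 of 14485). They were 12 in limma with no filter (2321 of 35148). The median of the members, 0.094, was 0.12 in limma with a pseudocount of 0.5, 0.12 with no filter, and 0.076 to 0.12 with 1 library left out. Hepacam, near 0, changed sign to 0.0024 with no filter and to 0.020, 0.020 and 0.020 in the limma fits, and ran from -0.045 to 0.030 with 1 library left out. Aldoc (-0.027 to 0.080), Tril (-0.021 to 0.070), Aqp4 (-0.0026 to 0.15), Gjb6 (-0.0013 to 0.17) and Cbs (-0.012 to 0.19) also crossed 0 with 1 library left out. Aldh1l1 (-0.062), Tril (-0.024) and Sox9 (0.037) changed sign without the libraries that hold transcripts of other organs. The cause of these shifts was not tested. Replicate numbers did not pair the libraries: deviations of same-numbered libraries correlated at -0.044, 0.012 and -0.022, and 1 of 6 libraries correlated best with its own number. With the replicate number as a block, 3 genes were called and 0 members, with 8 members higher and 3 lower at an unadjusted p under 0.05. At that threshold 1343 of the 20865 genes tested were higher and 1689 lower.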

Other observations

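Lists for cells and organs outside the parenchyma gave these values. Choroid plexus markers summed to 30.4 to 32.0 CPM in the GFP-labelled libraries and to 31.7, 60.4 and 76.7 CPM in Cre-labelled libraries 1 to 3. Meningeal fibroblast markers summed to 149 to 185 CPM and 158 to 184 CPM. Oligodendrocyte precursor markers summed to 346 to 371 CPM and 369 to 389 CPM, with 3 of 8 higher. The skeletal muscle sum was 273 CPM in library 3 of the Cre label, with 24.3 CPM the highest of the other libraries, and the liver sum was 3.86 to 17.3 CPM over the 6 libraries.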
